A study of Arabidopsis thaliana with 16 samples.

Results

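The called H3K27me3 peaks of Col-0 seedlings were wider at 3 than at 1 days after imbibition (DAI). The bases that the peaks newly covered at the edges of existing domains are described here. A member is a contiguous segment on chromosomes 1 to 5 that lay in a peak of both Col-0 libraries at 3 DAI and of neither Col-0 library at 1 DAI, was at least 500 bp long and directly adjoined a peak of at least 1 Col-0 library at 1 DAI. Of 6077 newly covered segments with 3434 kb in all, 1624 met this rule, with 2118 kb. A further 565 segments of at least 500 bp adjoined no 1 DAI peak, and 3587 adjoined one but were shorter than 500 bp. One member of exactly 500 bp was kept, and the longest adjoining segments left out were 2 of 499 bp.

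The series profiled H3K27me3 by ChIP-seq in whole seedlings of wild-type Col-0 and of *Atsdr4l-4* and *Atsdr4l-5*, segmental deletion alleles of *AtSDR4L* in the Col-0 background, at 1 and 3 DAI, all grown with 1% sucrose, with 2 replicates per genotype and time point and so 12 libraries. The labels do not say whether replicates came from separate seed batches, so the spread between them may be partly technical. *Atsdr4l-4* was segregated from a mutant that carried different alleles on its homologues, and *Atsdr4l-5* was a bulk of backcrossed lines free of Cas9. In bulk seedlings the share of cells that carry the mark and the amount of mark per cell cannot be told apart. Sequencing depth is unknown from peak lists, which carry no counts, and depth and time cannot be told apart where a whole library calls wider peaks. The peaks covered 21.3 to 25.3 Mb per library at 1 DAI and 24.9 to 28.2 Mb at 3 DAI, and their median fold enrichment over the mock IgG control was 1.79 to 1.99 at 1 DAI and 2.05 to 2.23 at 3 DAI. As a check of the mark, none of 6 constitutively expressed genes had a covered base in Col-0 at either time point. All 6 YABBY genes, leaf and organ polarity factors, were at least 90% covered already at 1 DAI in the mean of the 2 Col-0 libraries. The lowest single Col-0 value among them was that of *CRC*, with 1507 of 1792 bp in replicate 2.

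H3K27me3 is the repressive histone mark that Polycomb repressive complex 2 (PRC2) places. In plants PRC2 starts from short nucleation sites, where sequence-specific proteins such as the B3-domain factors VAL1 and VAL2 recruit it to RY motifs, and the mark then spreads along the gene body through reading of existing H3K27me3 and rewriting. During germination PRC2 and the VAL proteins silence the embryo programme, which includes the LAFL regulators, seed storage proteins and late embryogenesis abundant (LEA) proteins. AtSDR4L represses seed maturation genes in seedlings, and DIG1, DIG2 and the DIL proteins are its relatives.

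The edge itself is shown for 4 genes, *DIG2* and *DIL1* of the AtSDR4L family and the seed maturation genes *MFT* and *EM6*. Their members reach from the edge of a 1 DAI domain into the gene beside it. How the peaks came to extend was not tested. Each line gives 120 bases of the TAIR10.1 plus strand, 5′ to 3′. Lower case marks the 60 bases inside the Col-0 domain of 1 DAI, and capitals mark the first 60 bases that were covered only at 3 DAI. For *DIL1*, *MFT* and *EM6*, which lie on the minus strand, the domain of 1 DAI lay upstream of the annotated gene start. The newly covered bases lay between that domain and the gene and within the gene. For *DIG2*, also on the minus strand, the domain lay downstream of the gene end.
*DIG2* edge, chr5:20503388-20503507: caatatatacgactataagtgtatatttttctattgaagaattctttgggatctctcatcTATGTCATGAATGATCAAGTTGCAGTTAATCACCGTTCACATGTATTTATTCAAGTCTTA
*DIL1* edge, chr5:25381428-25381547: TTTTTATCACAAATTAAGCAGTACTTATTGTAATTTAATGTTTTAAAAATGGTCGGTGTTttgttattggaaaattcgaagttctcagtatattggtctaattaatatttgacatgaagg
*MFT* edge, chr1:6231851-6231970: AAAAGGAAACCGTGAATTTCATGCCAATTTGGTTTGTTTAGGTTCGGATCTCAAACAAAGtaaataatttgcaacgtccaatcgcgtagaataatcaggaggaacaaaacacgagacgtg
*EM6* edge, chr2:16780888-16781007: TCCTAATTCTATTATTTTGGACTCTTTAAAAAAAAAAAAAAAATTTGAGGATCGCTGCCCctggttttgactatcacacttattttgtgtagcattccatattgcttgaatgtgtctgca

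Member lengths had a median of 1089 bp, with quartiles of 735 and 1572 bp and a maximum of 6492 bp. There were 921 members of at least 1 kb, 238 of at least 2 kb and 7 of at least 5 kb. Most members, 1201 with 1431 kb, lay beside a single domain, and 423 with 687 kb filled the whole gap between neighbouring domains. The gap-filling members were the longer class, with a median of 1315 bp against 932 bp for the others. In no library did neighbouring peaks lie closer than 978 bp, and the broad mode of the caller links nearby enriched stretches, so a listed peak can hold bases that were not enriched by themselves. Of 6722 Col-0 domains of 1 DAI, 1812 (26.96%) carried at least 1 member, 1577 of them on 1 side and 235 on both sides. Members were spread evenly over the chromosomes, from 16.6 kb per Mb on chromosome 3 to 18.2 kb per Mb on chromosome 2.

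The members were chosen from the Col-0 libraries alone, so that by the rule their bases were covered to 0% at 1 DAI and to 100% at 3 DAI in Col-0. The 8 *Atsdr4l* libraries were not used in the choice and show whether the same bases entered peaks in seedlings that lack AtSDR4L. At 1 DAI the peaks covered 21.5% and 17.8% of all member bases in the *Atsdr4l-4* replicates and 10.5% and 19.1% in the *Atsdr4l-5* replicates. At 3 DAI they covered 62.6% and 82.0% in the *Atsdr4l-4* pair and 70.2% and 76.0% in the *Atsdr4l-5* pair. Every 3 DAI library lay above every 1 DAI library, and the alleles overlapped at both time points. The mean rose from 17.2% ± 4.72 to 72.7% ± 8.27 (SD, n = 4), a difference of 55.5 percentage points (exact two-sided permutation test over 70 splits, p = 0.0286, the smallest p this design allows). These splits mix the alleles, and with time labels permuted within each allele the exact permutation p was 0.0556, again the smallest possible, so that the call at 0.05 was lost. Within the alleles the means were 19.6% and 72.3% for *Atsdr4l-4* and 14.8% and 73.1% for *Atsdr4l-5* (n = 2 each).

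**Figure D1:**
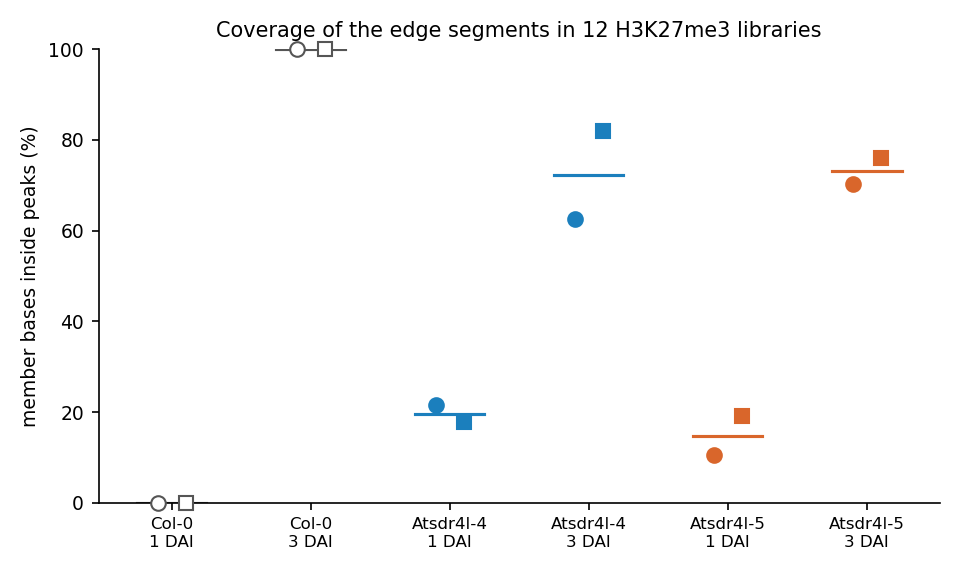
Share of member bases inside H3K27me3 peaks (%, vertical axis) in each of the 12 libraries, by genotype and time point. Circles are replicate 1, squares replicate 2 and lines the mean of 2 replicates; open Col-0 symbols are fixed at 0 and 100% by the rule, and the *Atsdr4l* libraries sit between 10.5 and 21.5% at 1 DAI and between 62.6 and 82.0% at 3 DAI.

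The members were then set against all other edges of the same Col-0 domains, with the first 500 bp outside an edge as the window. Of 13364 such windows 2047 carried a member and 11317 did not. By the rule the other edges gained no segment of at least 500 bp in both Col-0 libraries of 3 DAI, where their windows were covered to 16.7% and 17.3%. They are therefore not a neutral set, and the contrast shows only whether the mutants followed the division of edges seen in Col-0. In *Atsdr4l-4* at 1 DAI the member windows were covered to 30.6% and 25.8%, and the other windows to 15.7% and 8.76%. In *Atsdr4l-5* at 1 DAI these values were 15.5% and 28.4% for the member windows and 5.60% and 11.6% for the other windows. Member windows were thus covered more than other windows in each of the 4 mutant libraries already at 1 DAI. At 3 DAI the member windows reached 68.0% and 86.8% in the *Atsdr4l-4* pair and 75.7% and 79.99% in the *Atsdr4l-5* pair. The other windows stood at 11.1% and 22.02% in the *Atsdr4l-4* pair and 12.9% and 15.4% in the *Atsdr4l-5* pair, and their 1 and 3 DAI libraries overlapped. The excess of member over other windows rose from 14.6 ± 3.30 to 62.3 ± 3.63 percentage points (SD, n = 4), by 47.6 percentage points (exact two-sided permutation test, p = 0.0286, and 0.0556 within alleles, each the smallest possible). The other windows alone changed from 10.4% to 15.4%, a difference of 4.93 percentage points that was within the spread of the libraries (exact two-sided permutation test, p = 0.229).

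**Figure D2:**
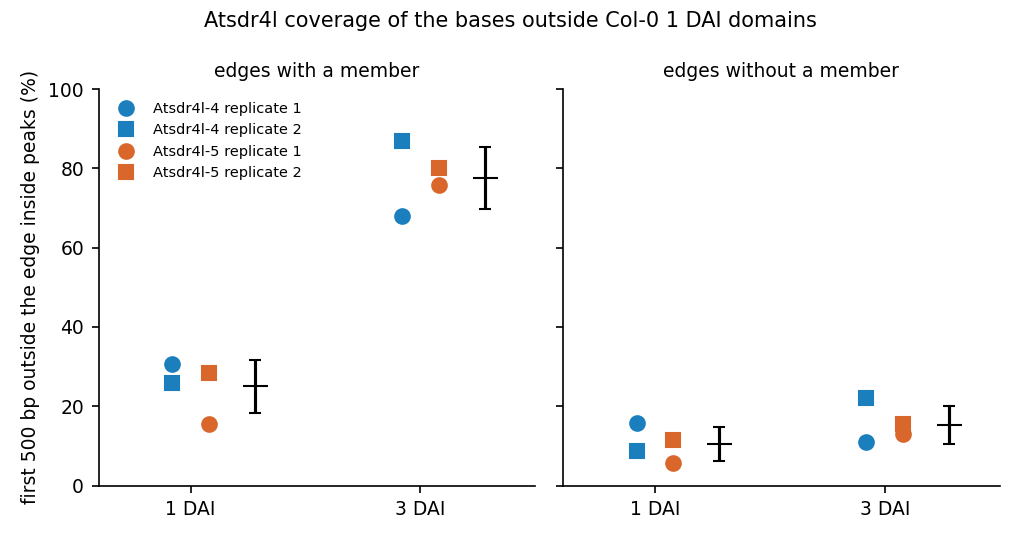
Share of the first 500 bp outside Col-0 1 DAI domains that lay inside *Atsdr4l* peaks (%, vertical axis), for 2047 edges with a member (left) and 11317 without (right). Points are single libraries, and the black marks are the mean and SD of 4 libraries; the member edges went from 25.1% to 77.6% and the other edges from 10.4% to 15.4%.

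Edge by edge, a window was counted as gained in an allele if at least 50% of it was covered in both 3 DAI libraries and in neither 1 DAI library. In *Atsdr4l-4* 740 of the 2047 member windows (36.2%) were gained, against 8.02% of all windows. In *Atsdr4l-5* 835 (40.8%) were gained, against 9.9% of all windows. By the same criterion 21.2% of all windows were gained in Col-0, from which nothing is read, since the rule used that contrast. The opposite change, a window covered at 1 DAI and lost by 3 DAI, was met in 14 member windows (0.684%, against 1.2% of all) in *Atsdr4l-4* and in 3 (0.147%, against 0.397% of all) in *Atsdr4l-5*. Over both alleles together, 768 member windows (37.5%) had more covered bases in each of the 4 libraries of 3 DAI than in any of the 4 libraries of 1 DAI, against 12.8% of all windows. A single member window showed the reverse, where the share over all windows was 0.703%.

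The members differed among themselves in how far the mutants followed. At 3 DAI 743 members (45.8%) were covered over at least 50% of their length in all 4 *Atsdr4l* libraries, 357 in 3 of them, 240 in 2, 210 in 1 and 74 (4.56%) in none. At 1 DAI 1067 members (65.7%) reached this coverage in none of the 4 mutant libraries and 60 (3.69%) in all 4. For 431 members (26.5%) both extremes met, with all 4 mutant libraries covered at 3 DAI and none at 1 DAI. These counts describe the members alone and are set against no other edges. Gap-filling members were covered more than the others in each of the 8 mutant libraries. Their bases were covered to 12.9 to 28.6% at 1 DAI and 65.2 to 85.3% at 3 DAI, whereas the bases of members beside a single domain were covered to 9.39 to 18.05% at 1 DAI and 61.3 to 80.4% at 3 DAI. Length showed its pattern at 1 DAI: in each of the 4 libraries coverage was highest in the 703 members under 1 kb (13.8 to 26.97%) and lowest in the 238 members of at least 2 kb (5.68 to 12.5%). At 3 DAI the corresponding ranges were 60.5 to 77.4% and 62.4 to 81.9%.

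Coverage also depended on the distance from the old edge, which was followed in 100-bp steps over the 547 members of at least 1 kb beside a single domain. In the mutant libraries of 1 DAI, 18.4 to 34.5% of the first 100 bp were covered, 9.61 to 16.8% at 500 to 600 bp and 6.39 to 12.7% at 900 to 1000 bp. In the mutant libraries of 3 DAI, 75.4 to 93.1% of the first 100 bp were covered, 63.2 to 85.6% at 500 to 600 bp and 56.3 to 79.7% at 900 to 1000 bp. In all 8 libraries the bases next to the old domain were thus covered most, and coverage was lower 1 kb away. Beyond 1 kb the profile rests on fewer members, 249 at 1500 to 1600 bp, where 60.5 to 80.7% of bases were covered at 3 DAI.

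**Figure D3:**
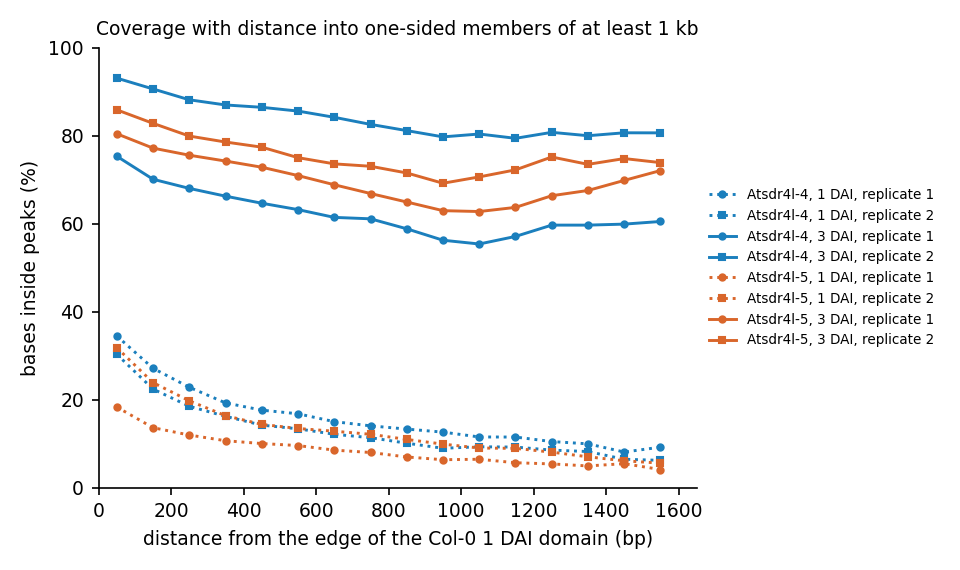
Share of bases inside *Atsdr4l* peaks (%, vertical axis) against distance in bp from the edge of the Col-0 1 DAI domain into members of at least 1 kb beside a single domain, in 100-bp steps. Each line is a library, dotted at 1 DAI and solid at 3 DAI; coverage of the first 100 bp is 18.4 to 34.5% at 1 DAI and 75.4 to 93.1% at 3 DAI and is lower in every library at 900 to 1000 bp.

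Peaks that touched members were compared with the other peaks of each library. At 3 DAI the touching peaks had a median fold enrichment of 2.17 to 2.39 against 1.99 to 2.18 for the rest and were wider, with medians of 3550 to 5330 bp against 1962 to 2204 bp. At 1 DAI the peaks that touched the later members had median fold enrichments near those of the rest, of 1.78 to 1.95 against 1.79 to 1.99. The Col-0 values among these follow in part from the rule, and no test was made.

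The rule applied to each mutant allele itself, with its own libraries at 1 and 3 DAI, found 942 growth segments with 1093 kb in *Atsdr4l-4* and 1122 with 1384 kb in *Atsdr4l-5*. Of these lengths 55.0% in *Atsdr4l-4* and 52.3% in *Atsdr4l-5* fell in members, which is 28.4% and 34.2% of the member length. In all 379 members (23.3%) overlapped growth segments of both alleles and 785 (48.3%) those of neither. For reference, 2047 of all 13364 edge windows carried a member, which is a share of windows and not of length. No overlap with growth segments was counted for the other edges. The reverse rule, for edge segments present at 1 DAI and absent at 3 DAI, gave 342 segments with 375 kb in Col-0, 269 with 273 kb in *Atsdr4l-4* and 233 with 230 kb in *Atsdr4l-5*, so that in each genotype the length gained at edges was larger than the length lost. Growth segments of a genotype need both of its libraries at both time points, so their number also depends on how well its replicates match.

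Position in genes was taken from the TAIR10.1 annotation. Of the member bases 47.7% lay in protein-coding genes, namely 27.3% in coding sequence, 9.27% in untranslated exon sequence and 11.1% in introns, and 21.3% lay up to 1 kb upstream of such a gene. Over all edge windows the share in protein-coding genes was 37.6%, with 16.3% in coding sequence and 13.9% in untranslated exon sequence, and over the Col-0 domains of 1 DAI it was 41.8%. Member bases were therefore richer in coding sequence and poorer in untranslated exon sequence than the edges in general. They were not richer than the genome, since chromosomes 1 to 5 held 54.1% of bases in protein-coding genes and 28.3% in coding sequence. Within the same first 500 bp, member edges held 23.1% coding and 9.42% untranslated sequence. The midpoint of 773 members (47.6%, 95% exact binomial interval 45.1 to 50.1%, which covers counting error only) lay in a protein-coding gene. Pseudogenes and RNA genes held 4.98% of member bases, and 26.0% were intergenic. In all 1263 members overlapped an annotated gene and 361 overlapped none.

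**Figure D4:**
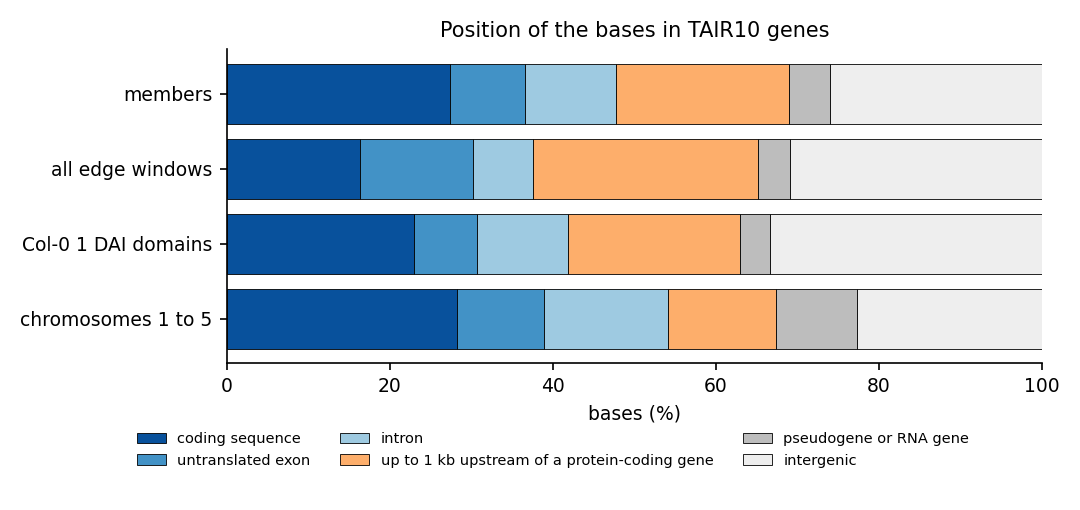
Share of bases (%, horizontal axis) by annotation class in members, in all 500-bp edge windows, in Col-0 domains of 1 DAI and in chromosomes 1 to 5. Coding sequence makes up 27.3% of member bases against 16.3% of all edge windows.

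Edges that ended inside a gene carried members more often. Of the domain edges that lay within a single protein-coding gene, 20.1% of those facing the 3′ end of the gene and 22.2% of those facing the 5′ end carried a member, against 12.5% of the edges outside protein-coding genes. Both directions along the gene were used, with 541 member edges facing 3′ and 396 facing 5′, and the share facing 3′, 57.7%, was near the 60.1% over all edges. In the mutants at 3 DAI the member windows facing 3′ were covered to 76.0 to 86.1%, those facing 5′ to 72.8 to 86.0% and those outside genes to 62.4 to 88.1%, so that the classes overlapped.

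The members touched 1537 annotated genes, of which 1290 were protein-coding, 101 pseudogenes and 5 miRNA genes. There were 1032 protein-coding genes with at least 300 member bases, and 158 that lay to at least 90% of their length within members, that is, genes taken over whole. In 110 of these 158 the number of covered bases in each of the 4 *Atsdr4l* libraries of 3 DAI exceeded that in all 4 of 1 DAI. Over the 13015 genes with a covered base in any library this held for 15.2%, and the reverse for 1.51%. By the rule the 158 genes had little or no coverage in Col-0 at 1 DAI. The 13015 also include genes covered whole in all 12 libraries, such as *YAB2*, which cannot separate upward. The 15.2% is therefore a loose reference, here and wherever a later count is set against it. This separation is a count rule. With 13015 genes and 70 splits no gene could pass a test adjusted over all genes.

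Among the 7 genes of the AtSDR4L, DIG and DIL family, 2 held members. *DIG2* (chr5:20505089-20506354), a close relative of AtSDR4L annotated as a von Willebrand factor A domain protein, lay whole within a member. It had no covered base in any of the 6 libraries of 1 DAI. At 3 DAI its 1266 bp were covered entirely in both Col-0 libraries, to 714 and 1266 bp in the *Atsdr4l-4* pair and to 724 and 706 bp in the *Atsdr4l-5* pair. In 3 of the 4 mutant libraries the covered part was thus 706 to 724 bp, and in the other the whole gene. *DIL1* (chr5:25379931-25381317, 1387 bp) was likewise uncovered in all 6 libraries of 1 DAI. At 3 DAI it was covered over 1331 and 1316 bp in the wild-type pair, 944 and 1155 bp in the *Atsdr4l-4* pair and 1181 and 928 bp in the *Atsdr4l-5* pair. The rule fixed the Col-0 coverage of member bases at both time points. Higher mutant values at 1 DAI and lower ones at 3 DAI, at these and the following genes, are therefore no comparison between genotypes. For 3 DAI the paper, from its differential binding analysis, reports a significant decrease of H3K27me3 at *DIG2* and *DIL1* in the mutants. Covered bases are another measure and were not tested between genotypes. Both genes were separated upward in *Atsdr4l* with all peaks. *DIG2* was no longer so with any stricter choice of peaks (a −log10 q of at least 5, a fold enrichment of at least 2, or the top 6000 peaks of each library), and *DIL1* not with the threshold on fold enrichment, which also ended the separation of *MFT* and *WOX11*.

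Seed maturation genes formed the next group. *MFT*, the gene of a phosphatidylethanolamine-binding protein that controls germination together with abscisic acid (ABA), had no covered base in the 6 libraries of 1 DAI. At 3 DAI its 2978 bp (chr1:6227217-6230194) were covered over 1891 and 2014 bp in the wild-type pair, 1452 and 1864 bp in the *Atsdr4l-4* pair and 1820 and 1735 bp in the *Atsdr4l-5* pair. Of the 12 genes for seed storage and LEA proteins 4 had a member base and 2 had at least 300. The cruciferin gene *CRA1*, whose product is a major storage globulin, had 0 and 719 covered bp in the wild-type pair at 1 DAI and none in the 4 mutant libraries. At 3 DAI its 2099 bp were covered whole in the wild type, and the mutants ranged from 2014 to 2099 bp. *EM6*, a LEA gene of 817 bp, went from 0 bp in all 6 libraries of 1 DAI to 817 bp in both wild-type libraries, 748 and 817 bp in the *Atsdr4l-4* pair and 750 and 817 bp in the *Atsdr4l-5* pair. The albumin gene *SESA5* held 228 member bases and was covered over 0 bp in the mutants at 1 DAI and over all its 830 bp in each of the 4 at 3 DAI. Of the 12 genes, most of which held no member base, 8 were separated upward in *Atsdr4l* and 0 downward, against 15.2% and 1.51% of all 13015 genes.

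*OLEO2*, which encodes an oleosin of seed oil bodies, behaved otherwise. A member of 1296 bp (chr5:16174623-16175918) lay over 161 bp at the start of the gene and the sequence upstream of it. It was covered in full in both Col-0 libraries of 3 DAI and had no covered base in any of the 8 *Atsdr4l* libraries. The gene body itself, of 1444 bp, had 196 and 161 covered bp in the wild-type pair at 3 DAI and none elsewhere. The member was 1 of 11 with no covered base in any *Atsdr4l* library of 3 DAI. Among the other 10, which were chosen after their values were seen, were a gap of 1568 bp that included 467 bp of the auxin efflux carrier gene *PIN4* and 795 bp of the RNA gene AT2G01422, uncovered in all 8 mutant libraries, and a member of 1997 bp over AT4G04745, of which 475 to 1225 bp were covered in the 4 mutant libraries of 1 DAI and 0 bp in those of 3 DAI.

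A few more of the 158 genes taken over whole are given as examples. They were picked by their annotation after their values were seen, and most of the 158 have other annotations. The adjacent dehydrin genes *XERO1* (1016 bp) and *LTI30* (969 bp) were uncovered in all 6 libraries of 1 DAI. At 3 DAI *XERO1* was covered whole in all 6 libraries and *LTI30* over 855 to 969 bp. The LEA gene *M10* (727 bp) was uncovered at 1 DAI and covered whole in all 6 libraries at 3 DAI. The vicilin-like cupin gene *PAP85* was uncovered at 1 DAI and covered at 3 DAI over 2201 and 2218 bp in the wild-type pair, with 1537 to 2194 bp in the mutants. Another cupin gene, AT2G28490, of 2416 bp, was uncovered at 1 DAI and had 632 to 1041 covered bp in the 4 mutant libraries of 3 DAI. *ATGA2OX1*, a gibberellin 2-oxidase that inactivates the hormone, was covered over all 1540 bp in Col-0, 695 and 1540 bp in the *Atsdr4l-4* pair and 713 and 654 bp in the *Atsdr4l-5* pair at 3 DAI and was uncovered in all libraries at 1 DAI.

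Developmental regulators made up most of the other listed genes with members, and here the domain usually covered much of the gene beforehand. Among the 7 KNOX and CUC meristem genes 3 held at least 300 member bases. *KNAT6*, a class I KNOX homeobox gene of the shoot meristem, had 3838 and 3760 of 5411 bp covered in the wild-type pair at 1 DAI and 3295 to 3973 bp in the mutants. At 3 DAI it was covered over 5164 and 5085 bp in the wild-type pair, with a mutant range of 5168 to 5299 bp. *KNAT2*, its close relative, was covered over 3228 to 4351 of 6394 bp in the mutants at 1 DAI and over 4596, 5132, 4641 and 6050 bp at 3 DAI, against 6267 and 6394 bp in Col-0. Its 1607 member bases alone were covered to 22.3%, 24.3%, 7.16% and 100% in the same mutant libraries of 3 DAI. At 1 DAI the highest mutant value for these bases was 1.93%. *CUC3*, a NAC factor of organ boundaries, was covered over 825 to 1365 of 2240 bp in the mutants at 1 DAI. At 3 DAI it was covered whole in 3 mutant libraries and over 1595 bp in *Atsdr4l-5* replicate 2.

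Of the 15 WOX homeobox genes 3 held at least 300 member bases, and all of their bases were covered in all 6 libraries of 3 DAI. *WOX11* and *WOX12*, which act in root founder cells, were separated in *Atsdr4l*, from 978 to 1462 of 3064 bp and from 3598 to 3847 of 4347 bp at 1 DAI. *WOX2*, an embryo patterning gene, was covered over 746 and 716 bp in the *Atsdr4l-4* pair and 0 and 1713 bp in the *Atsdr4l-5* pair at 1 DAI, so that 1 replicate of *Atsdr4l-5* was already whole and its 2 replicates were at opposite ends. The same replicate had all 2394 bp of the auxin synthesis gene *YUC4* covered at 1 DAI, against 351 to 973 bp in the other 3 mutant libraries. *AIL1*, an AP2-type factor related to AINTEGUMENTA, was covered over 598 and 994 of 2318 bp in Col-0 at 1 DAI. In the mutants it was covered over 1419, 2121, 2283 and 2318 bp at 1 DAI, and it was whole in all 6 libraries at 3 DAI. Its 1025 member bases were uncovered in Col-0 at 1 DAI by the rule, so these values are no comparison between genotypes. *SHP2*, a MADS gene of the carpel and fruit, was covered over 3900 bp in *Atsdr4l-4* replicate 2 at 1 DAI and over 3080 to 3139 bp in the other mutant libraries of that day. These 4 genes overlapped between time points in *Atsdr4l* and were not separated.

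**Figure D5:**
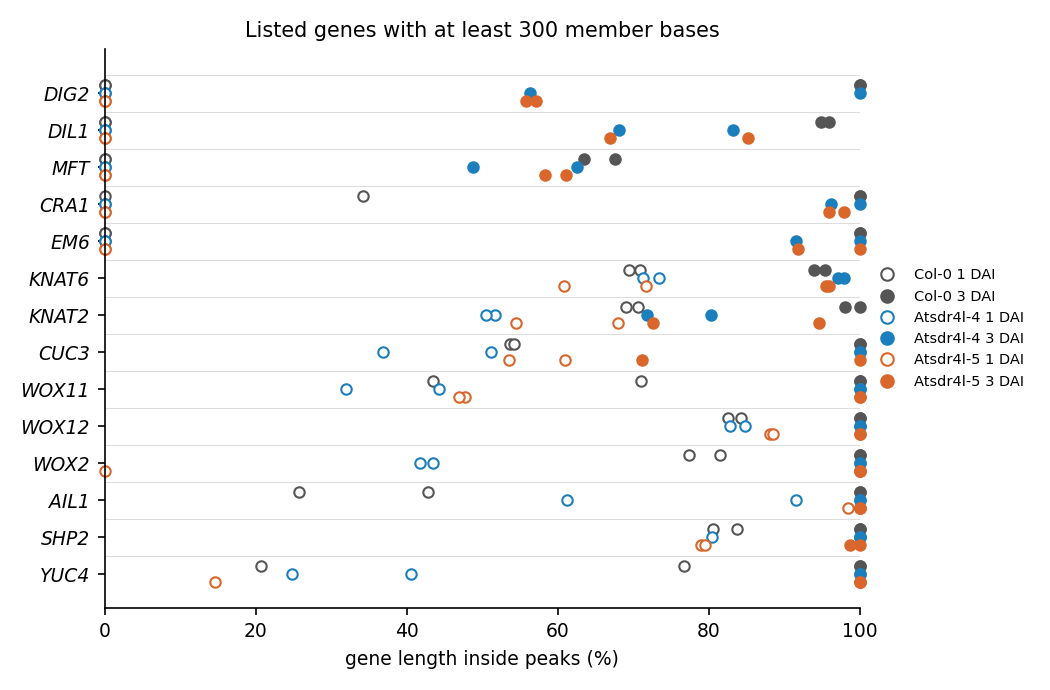
Share of gene length inside peaks (%, horizontal axis) for the 14 listed genes with at least 300 member bases, in all 12 libraries. Open circles are 1 DAI and filled circles 3 DAI, coloured by genotype; *DIG2*, *DIL1*, *MFT* and *EM6* stand at 0% in all 6 libraries of 1 DAI, whereas *KNAT6* and *WOX12* were largely covered before.

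Over the lists as a whole, 19 of 121 genes had a member base and 14 had at least 300. Among the 5 LAFL embryo regulators *LEC1* held 187 member bases and had 1433 and 1886 covered bp in the wild-type pair at 1 DAI, with a mutant range of 0 to 406 bp. At 3 DAI it was covered whole in Col-0 and over 1794 to 2073 of 2073 bp in the mutants. For 1 DAI the paper, from its signal tracks, reports comparable H3K27me3 at *LEC1* in the wild type and the mutants. Covered bases depend on the threshold of the peak caller and are not a signal level. The difference in covered bases between genotypes was not tested. No member touched the 8 flowering time MADS genes, the 6 YABBY genes, the 3 stomatal lineage bHLH genes or the 11 Polycomb and VAL genes. Of the 11 Polycomb and VAL genes 9 were uncovered in Col-0 at both time points. Within the member bases alone, 10 of the 14 described genes were separated upward in *Atsdr4l* and 0 downward, where 37.5% of member windows, 12.8% of all windows and 15.2% of all genes were separated upward.

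The 25 genes with the most member bases were led by other families, 22 of them protein-coding. In 19 of the 25 the mutant libraries of 3 DAI all lay above those of 1 DAI, and in 0 all below, against 15.2% and 1.51% of all 13015 genes. *UMAMIT23*, of a family of amino acid transporters, was uncovered in all 6 libraries of 1 DAI and covered over all 2982 bp in all 6 libraries of 3 DAI. *GH9B18*, a glycosyl hydrolase, was covered over its whole 3367 bp in all 6 libraries of 3 DAI and over 0 to 1120 bp in the mutants at 1 DAI. The MATE efflux gene AT4G21903 (3571 bp) was uncovered in all 6 libraries of 1 DAI. At 3 DAI it was covered whole in Col-0, over 1598 and 2983 bp in the *Atsdr4l-4* pair and over 3571 and 2969 bp in the *Atsdr4l-5* pair. The exostosin family gene AT5G03795 was likewise uncovered in all 6 libraries of 1 DAI, and at 3 DAI it had 876 and 1679 covered bp in the *Atsdr4l-4* pair, 1013 and 1053 bp in the *Atsdr4l-5* pair and, by the rule, nearly its whole length in Col-0. Cell wall, transport and defence annotations were also among the 25, with the cellulose synthase-like gene *CSLG3*, the ABC transporter gene *ABCA10*, the aphid-induced lipase gene *MPL1* and the TIR-type resistance gene AT5G46270 all separated upward, although *ABCA10* and AT5G46270 were not so with any of the stricter choices of peaks and AT4G21903 was not with the threshold on fold enrichment. The 25 also held 2 homeodomain genes. *HDG1*, an epidermal homeodomain factor, had 1116 and 832 of 4825 bp covered in the wild-type pair at 1 DAI and 1609 to 2770 bp in the mutants. Its 3192 member bases were uncovered in Col-0 at 1 DAI by the rule, so these values too are no comparison between genotypes. At 3 DAI its coverage was 4392 to 4554 bp over all 6 libraries. *HB-7* was covered over 2347 to 3225 of 5116 bp in the mutants at 1 DAI and over 3776 to 5116 bp at 3 DAI. The 6 genes that overlapped between time points in the mutants were AT1G29720, AT3G31005, AT5G46380, AT3G55580, AT2G22620 and AT1G58050. The last of these, an RNA helicase gene, was covered over 4783 to 6590 bp at 1 DAI and 5543 to 7820 bp at 3 DAI in the mutants.

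Of the 5 longest members, the longest, of 6492 bp (chr5:23895649-23902140), ran from *HAI1*, the gene of a clade A protein phosphatase of ABA signalling, across the intergenic region to AT5G59230. It had no covered base in the mutants at 1 DAI and 5145 and 5148 bp in the *Atsdr4l-4* pair and 3857 and 3719 bp in the *Atsdr4l-5* pair at 3 DAI, so that replicates of an allele lay close together and the alleles apart. A gap of 5705 bp (chr1:10571838-10577542) held 1528 bp of *NCED5*, which encodes an enzyme of ABA synthesis. It was covered over 0 to 13 bp in the mutants at 1 DAI and 3270 to 3592 bp in all 4 at 3 DAI. A gap of 5469 bp beginning in *STOMAGEN*, the gene of a peptide that raises stomatal density, and holding the whole of AT4G12980 was covered over 995 and 822 bp in the *Atsdr4l-4* pair and 2662 and 2442 bp in the *Atsdr4l-5* pair at 3 DAI. The member over AT4G21903 (5925 bp) was covered over 3261 to 5858 bp and that over the RNA gene AT3G44765 (5459 bp) over 4194 to 5459 bp in the mutants of 3 DAI.

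The first 500 bp of member edges were searched on both strands for letters linked to Polycomb recruitment or to seed gene regulation. The RY motif (CATGCA or its reverse complement TGCATG), the letters bound by B3-domain factors, was present in 502 of 2047 member windows (24.5%) and in 18.4% of all 13364 edge windows. The G-box (CACGTG), bound by bZIP and bHLH factors, was present in 9.28% of member windows and 8.52% of all. The telobox (AAACCCTA or TAGGGTTT) was present in 5.28% and 6.56%, and the GA repeat (GAGAGAGA or TCTCTCTC) in 7.38% and 8.55%. Median GC content was 33.6% in member windows and 32.6% in the other windows. These shares are descriptions, since neighbouring windows can share bases and genes.

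Of the RY and G-box letters within members at the listed genes, 8 places are shown, chosen after the matches were seen because they lie in or beside the genes whose values are given above. Each is on the TAIR10.1 plus strand with 20 bases on each side, capitals marking the RY or G-box letters. Where RY letters overlap on opposite strands, as in CATGCATG, the capitals run on. The pair upstream of *MFT* starts 635 bp from the annotated gene start, that upstream of *CRA1* 181 bp and the G-box upstream of *EM6* 39 bp.
*MFT* upstream, chr1:6230797-6230849: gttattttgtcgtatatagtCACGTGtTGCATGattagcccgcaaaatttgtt
*MFT* intron, chr1:6229766-6229815: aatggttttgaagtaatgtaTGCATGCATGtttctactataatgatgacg
*CRA1* upstream, chr5:17758475-17758537: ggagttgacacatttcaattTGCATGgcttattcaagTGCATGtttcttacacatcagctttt
*EM6* upstream, chr2:16780382-16780427: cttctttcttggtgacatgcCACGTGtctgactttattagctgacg
*DIL1* coding sequence, chr5:25380302-25380369: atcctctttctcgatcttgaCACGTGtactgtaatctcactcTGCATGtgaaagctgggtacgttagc
*DIG2* coding sequence, chr5:20505525-20505570: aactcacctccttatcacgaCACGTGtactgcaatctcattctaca
*KNAT2* intron, chr1:26580637-26580693: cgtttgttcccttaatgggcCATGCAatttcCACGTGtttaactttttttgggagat
*AIL1* intron, chr1:27333295-27333368: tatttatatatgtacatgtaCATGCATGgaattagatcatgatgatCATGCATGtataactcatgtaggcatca
All of these bases were outside the Col-0 peaks of 1 DAI and inside those of 3 DAI. A match is only a run of letters and does not show that a factor was bound.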

How the data were processed

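H3K27me3 ChIP-seq peaks of 12 seedling libraries were analysed. As the study's methods and the submitters' processing notes state, the authors trimmed reads with fastp 0.23.4, mapped them with Bowtie 2 against the TAIR10 genome, kept alignments of sufficient mapping quality (SAMtools 1.6) and ran the broad mode of MACS2 2.2.7.1 on each library against joined mock IgG controls, without pooling replicates. The deposited lists give, for each peak, a score, a fold enrichment (a linear ratio over background), and the −log10 of the p-value and of the q-value. They hold no counts, so depth is unknown and the number of libraries limits the precision. Mock IgG libraries were not analysed here.

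Peaks on chromosomes 1 to 5 were turned into covered bases in Python 3.11.15 with NumPy 2.4.6, and figures were drawn with Matplotlib 3.10.9. Members were found by the rule given in the report, and time points were compared over the 8 *Atsdr4l* libraries by exact two-sided permutation tests. Genes were placed with the TAIR10.1 annotation of RefSeq, whose chromosome lengths hold every peak, and sequences are from the same assembly. Named were the 25 genes with the most member bases, the 5 longest members, the segments at the 500-bp limit and the genes of 15 lists (121 genes, all matched by locus), of which those with at least 300 member bases are described singly. Outside that limit, the listed genes *SESA5*, *OLEO2* and *LEC1*, with 228, 161 and 187 member bases, are also described. Further genes were chosen after their values were seen, as stated beside them. The members, lists and tests were chosen with earlier results of these data known. The search for members and the permutation tests were tested on simulated data. Alternatives were stricter peak thresholds, equal numbers of peaks, other member lengths and windows, joined peaks, left-out libraries, single alleles and a replicate block.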

Additional observations from a re-analysis of the deposited data

Results flagged for a closer look

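Peaks on the chloroplast and mitochondrial genomes, which carry no histones and were left out of every comparison, were listed in 5 of the 6 libraries of 1 DAI and in none of 3 DAI. The Col-0 libraries of 1 DAI held 20 and 27 such peaks, *Atsdr4l-4* replicate 2 held 23, and the *Atsdr4l-5* replicates 15 and 17. The library without any at 1 DAI, *Atsdr4l-4* replicate 1, also had the widest nuclear coverage of that day, 25.3 Mb, and the largest share of member bases covered, 21.5%. The part of these peaks in the coverage of members was not tested.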

How the results depend on the processing

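The number of members, 1624 with all peaks, was 1054 when peaks needed a −log10 q of 5, 813 with peaks of fold enrichment of at least 2 and 921 with a minimum length of 1000 bp. Member windows gained then numbered 434 in *Atsdr4l-4* and 482 in *Atsdr4l-5* with the threshold on q, 348 and 365 with that on fold enrichment, and 550 in *Atsdr4l-5* with the longer minimum, as fewer windows carried a member (1197, 898 and 1295). As shares these were 36.3 to 38.8% in *Atsdr4l-4* and 40.3 to 42.5% in *Atsdr4l-5*. The member length was 1590 to 2880 kb over all alternatives, and both permutation results and the position in genes held, under every threshold, length, window and ranking tried. Joining peaks across 200 bp changed nothing, as no gap was that short. Without 1 Col-0 library the members numbered 2058 to 2141 with 2721 to 2880 kb, the rise in *Atsdr4l* coverage was 47.4 to 51.0 percentage points and the rise in the excess over other edges 40.0 to 43.8. Without 1 *Atsdr4l* library these rises were 52.4 to 58.8 and 46.1 to 49.4 percentage points, and 792 to 898 windows were separated, a count added after the data were seen.

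Tests that keep the alleles or replicates apart cannot pass 0.05. With time labels shuffled within alleles the rises of 55.5 and 47.6 percentage points had an exact permutation p of 0.0556. With the replicate block, pairs of an allele and replicate number, both had an exact permutation p of 0.125. In *Atsdr4l-4* alone the rises were 52.7 and 44.9 and in *Atsdr4l-5* alone 58.3 and 50.4 percentage points (exact permutation p = 0.333), each the smallest p possible. Replicate numbers did not pair the libraries, since the correlation between replicate differences at 1 and at 3 DAI over the 13364 windows was −0.08 in *Atsdr4l-4* and 0.06 in *Atsdr4l-5*. Of 39 named genes 29 were separated in *Atsdr4l*, of which 7 were no longer so with the threshold on q, 13 with that on fold enrichment and 4 with the top 6000 peaks of each library. No named gene changed direction. Peak edges are set by the caller and by a depth that is unknown, and 2 replicates per group bound every statement on a single locus.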

Other observations

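Gene families were counted by words of their RefSeq product names, chosen after the leading genes were seen, so the shares are descriptions with no test. Of the 6828 protein-coding genes that touched an edge window, 837 (12.3%) held at least 300 member bases. Among homeobox genes this was so for 14 of 36 (38.9%), the highest share of the 11 words tried. Genes named as late embryogenesis abundant stood at 6 of 25 (24.0%), cytochrome P450 genes at 14 of 64 (21.9%), MYB genes at 8 of 39 (20.5%) and NAC genes at 7 of 35. Kinase genes, at 44 of 357 (12.3%), were at the overall share, and ribosomal protein genes were lowest with 1 of 75 (1.33%). The remaining words gave 9 of 43 (20.9%) for oxidoreductases of the 2-oxoglutarate type and 4 of 23 (17.4%) for MADS-box genes. WRKY genes stood at 2 of 12 (16.7%) and ABC transporter genes at 2 of 19 (10.5%).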
